A study of Homo sapiens with 24 samples.

Results

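The genes described here are the 4 inhibitors of DNA binding, ID1, ID2, ID3 and ID4, and 5 feedback regulators of BMP and TGF-beta signalling, SMAD6, SMAD7, SKIL, TGIF1 and BAMBI. They were taken as all probes annotated to these symbols, which gave 9 of the 13283 genes measured and 19 of the 47323 probes on the array. Of the 19 probes, 16 were detected on at least 6 of the 24 arrays and were kept, and every one of the 9 genes had at least 1 kept probe. The cells were HEK293, a human embryonic kidney cell line, grown in dishes in serum-containing medium. They were given MOTS-c, a peptide of 16 residues encoded within a mitochondrial ribosomal RNA gene, at 10 µM, or water as the control. The 4 groups were MOTS-c for 4 h, water for 4 h, MOTS-c for 72 h and water for 72 h, with 6 Illumina bead arrays each and 1 RNA sample per array. The added peptide models exposure from outside the cell in 1 cell line. The labels do not state whether replicate arrays stem from separate dishes, so a p-value here reflects the variation among these RNA samples alone, part of which may be technical.

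BMPs and TGF-beta are secreted ligands that bind paired serine/threonine kinase receptors. The receptors phosphorylate SMAD proteins, which join SMAD4 and act on genes in the nucleus. The ID genes are among the best known targets of BMP signalling. Their products pair with E proteins, basic helix-loop-helix factors, and keep them off DNA, and they are known for holding many cell types in a proliferating, undifferentiated state. SMAD6 and SMAD7 are the inhibitory SMADs, which SMAD signalling induces and which then block the receptors. SKIL (also SnoN) and TGIF1 are nuclear co-repressors of SMAD target genes, and BAMBI is a pseudoreceptor with no kinase domain.

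Mean probe intensity per array lay between 399.2 and 629.5 and the number of probes detected between 20719 and 23405. Of 10 genes known to be expressed in HEK293, 9 were detected on all 24 arrays and PAX2 on 8. At 72 h, 2 of the 10 were called higher with MOTS-c and 4 lower (4 and 3 under median scaling). Among the lower ones was SOX3, a transcription factor of neural progenitors, at a log2 fold change of −2.49. Of the markers of other cell types, CD3E, PECAM1, CDH5, TEK, APOA1, KRT5, KRT14, LRP2, CUBN and SLC12A1 were detected on 0 arrays, while CD68, CD14, COL1A1, LUM, ALB, EPCAM and CDH1 were detected on all 24. Of the other-cell markers measured, CD14 (−0.76), CDH1 (−0.42), VWF and COL3A1 were called lower with MOTS-c at 72 h and 0 were called higher. VWF was detected on 6 of the 24 arrays, the fewest the filter allows, and COL3A1 on 8, so no fold is given for them. VWF was the 1 measured endothelial marker of 5, and its level was highest in controls at 72 h. It may have passed the filter through that group alone, which would favour its call, so no range is given either. CDH1 lost the call under median scaling (−0.28, adjusted p 0.0706). The summed level of the 3 measured leukocyte markers of 6 was 588.3 to 650 on the MOTS-c arrays at 72 h. It was 661 to 1020 on the control arrays (762.8 to 1020 without control replicate 5). With all arrays, CD14 of these was called lower, and CD68 and LYZ were not called. The sums with MOTS-c and in controls overlapped for fibroblast (464.4 to 492.8 and 487.1 to 568.9) and hepatocyte markers (82.04 to 116 and 99.25 to 107). They also overlapped for keratinocyte or carcinoma markers, at 9260 to 10060 with MOTS-c and 8763 to 9809 in controls. The part of these markers in the results below was not tested. The control array of replicate 5 at 72 h stood apart from the rest, with the lowest array weight (0.376, against 0.672 to 1.8 on the others), so effects at 72 h are also given without it. CD68 and COL1A1 were then called lower too (−0.35 and −0.20).

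The promoters of 5 of the genes are shown because ID1, ID2, ID3 and BAMBI were all lower with MOTS-c at 72 h, while SMAD6, itself a feedback gene of the pathway, was not called. TGIF1, also called lower, and ID4, SMAD7 and SKIL are not printed. Each window runs from 250 bases before to 50 bases after the RefSeq start of the gene on GRCh38.p14, 5′ to 3′ on the strand of the gene. ID1 is chr20:31605039-31605338 (+ strand), ID2 is chr2:8681806-8682105 (+), ID3 is chr1:23559452-23559751 (− strand), BAMBI is chr10:28677271-28677570 (+) and SMAD6 is chr15:66701986-66702285 (+). Capitals mark a match on either strand to GGCGCC or GGAGCC (GC-rich SMAD sites), CAGAC or TCTAGA (letters of the SMAD-binding element and of its palindrome, less the outer bases), or CANNTG (the E-box that E proteins bind). On the opposite strand GGAGCC reads GGCTCC and CAGAC reads GTCTG, and no 2 matches overlap in these windows.
ID1: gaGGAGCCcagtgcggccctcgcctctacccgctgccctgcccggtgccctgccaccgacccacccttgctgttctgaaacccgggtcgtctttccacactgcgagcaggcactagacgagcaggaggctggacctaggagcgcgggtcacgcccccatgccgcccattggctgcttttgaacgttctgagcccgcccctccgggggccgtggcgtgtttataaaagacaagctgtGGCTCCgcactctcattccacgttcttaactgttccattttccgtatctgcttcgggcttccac
ID2: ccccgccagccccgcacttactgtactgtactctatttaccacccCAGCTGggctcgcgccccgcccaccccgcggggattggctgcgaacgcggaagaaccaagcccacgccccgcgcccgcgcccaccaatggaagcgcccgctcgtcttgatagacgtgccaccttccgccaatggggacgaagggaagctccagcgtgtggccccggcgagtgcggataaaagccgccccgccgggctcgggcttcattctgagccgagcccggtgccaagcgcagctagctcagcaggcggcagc
ID3: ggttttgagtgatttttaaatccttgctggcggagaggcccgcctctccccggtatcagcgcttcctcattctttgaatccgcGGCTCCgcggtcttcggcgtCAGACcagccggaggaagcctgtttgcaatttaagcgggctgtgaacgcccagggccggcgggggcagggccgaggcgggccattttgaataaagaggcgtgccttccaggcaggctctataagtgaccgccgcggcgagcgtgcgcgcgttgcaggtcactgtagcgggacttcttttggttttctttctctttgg
BAMBI: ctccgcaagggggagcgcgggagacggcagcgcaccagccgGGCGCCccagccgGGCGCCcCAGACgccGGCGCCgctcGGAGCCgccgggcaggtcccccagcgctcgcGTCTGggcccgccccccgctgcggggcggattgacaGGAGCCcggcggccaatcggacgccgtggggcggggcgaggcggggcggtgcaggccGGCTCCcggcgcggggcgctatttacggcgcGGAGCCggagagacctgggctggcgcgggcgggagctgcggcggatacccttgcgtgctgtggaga
SMAD6: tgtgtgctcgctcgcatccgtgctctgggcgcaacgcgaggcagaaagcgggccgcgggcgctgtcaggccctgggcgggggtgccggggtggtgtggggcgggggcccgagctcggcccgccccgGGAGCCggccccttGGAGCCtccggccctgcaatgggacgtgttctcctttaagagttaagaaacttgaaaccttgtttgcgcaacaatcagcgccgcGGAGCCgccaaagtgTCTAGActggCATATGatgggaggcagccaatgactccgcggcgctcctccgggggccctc

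The BAMBI window held 3 matches to GGCGCC, 4 to GGAGCC and 2 to CAGAC. The ID1 window held 2 matches to GGAGCC, the ID3 window 1 to GGAGCC and 1 to CAGAC, and the ID2 window 1 to CANNTG. The SMAD6 window held 3 matches to GGAGCC, 1 to TCTAGA and 1 to CANNTG. Over all 35116 windows of the same length, 19.2% held GGCGCC, 36% GGAGCC, 45.3% CAGAC, 5.02% TCTAGA and 68.7% CANNTG. GC content was 80% in the BAMBI window, 69% in ID2, 68% in SMAD6, 62.7% in ID1 and 59.7% in ID3, against a median of 58.7% over all windows. These matches describe the letters of the windows only.

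At 72 h, most of the ID genes, TGIF1 and BAMBI were lower with MOTS-c, and SMAD7 was higher on 1 of its 2 probes. Of the 9 genes, 5 fell (ID1, ID2, ID3, TGIF1 and BAMBI), 1 rose (SMAD7) and 3 were not called (ID4, SMAD6 and SKIL), at a Benjamini-Hochberg adjusted p under 0.05 by limma. Over all genes tested 45.1% were called at 72 h, 22.1% higher and 22.9% lower, so 6 of 9 called is read against a background in which nearly as many genes moved as stayed. In 4 of the 9 (ID2, ID3, TGIF1 and BAMBI) the 2 groups of arrays did not overlap, as in 22.4% of all genes. All 4 were lower with MOTS-c, and non-overlap in that direction held for 13.1% of all genes, with 9.35% in the other. The median log2 fold change of the 9 was −0.36, beside 0.01 over all genes. Levels below are normalized log2 intensities, which cannot be set against each other between genes, and the effects are log2 differences, MOTS-c minus control, with a standard error from the model and 6 arrays per group. In a bulk sample, fewer cells that express a gene and less RNA per cell cannot be told apart.

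**Figure D1:**
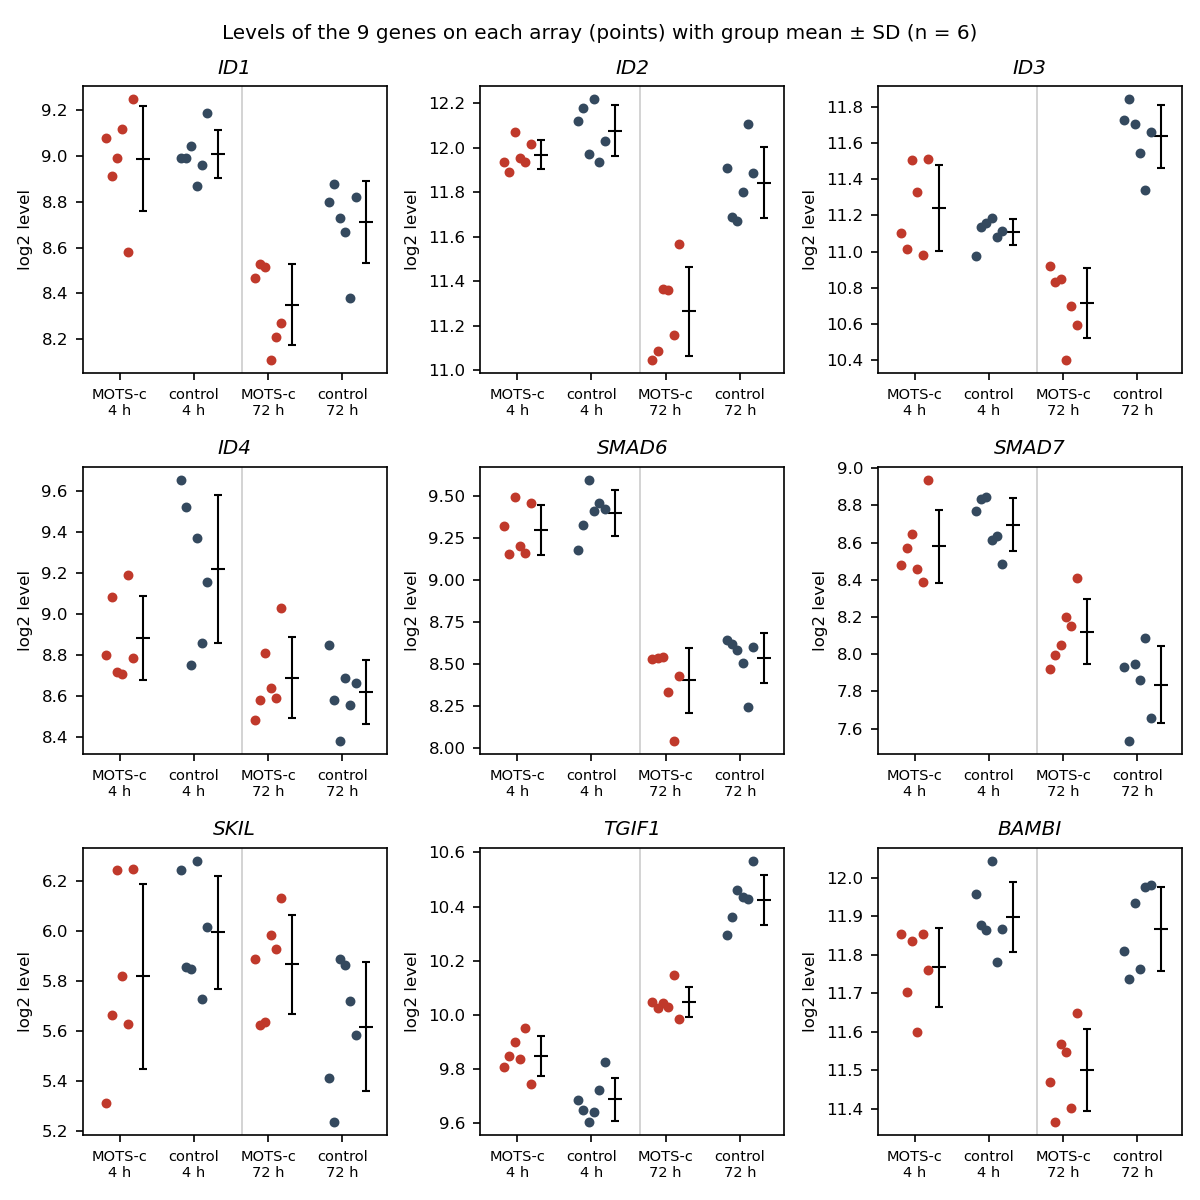
Normalized log2 intensity (vertical axis) of the 9 genes on each of the 24 arrays, with 1 panel per gene, MOTS-c left of control at 4 h and at 72 h, points for arrays and bars for the group mean ± SD (n = 6). At 72 h the MOTS-c and control points of ID2, ID3, TGIF1 and BAMBI are fully separated, and those of the other 5 genes overlap.

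ID3 showed the largest difference of the 9. At 72 h its lowest, median and highest levels were 10.4, 10.76 and 10.92 with MOTS-c, against 11.34, 11.68 and 11.84 in controls. Every MOTS-c array lay below every control array. The log2 fold change was −0.92 (SE 0.099), a 1.89-fold lower level, with a limma adjusted p of 2.81e-08. Only 1.1% of all genes had a lower log2 fold change. ID3 (chr1:23557926-23559501) is induced with ID1 by BMP receptors in many cell types.

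ID2 (chr2:8682056-8684461) was lower on both of its probes. On the brighter probe its lowest, median and highest levels at 72 h were 11.05, 11.26 and 11.57 with MOTS-c and 11.67, 11.84 and 12.11 in controls, with no overlap. The log2 fold change was −0.58 (SE 0.083), or 1.49-fold lower, with a limma adjusted p of 2.52e-06. The other probe, at 10.62 to 10.89 with MOTS-c and 11.45 to 11.62 in controls, was also free of overlap, with a log2 fold change of −0.80 (SE 0.083). ID2 binds E proteins such as TCF3 and TCF12 and is also known for binding the retinoblastoma protein.

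ID1 (chr20:31605289-31606510) moved less. Its lowest, median and highest levels at 72 h were 8.11, 8.37 and 8.53 with MOTS-c and 8.38, 8.76 and 8.88 in controls. The groups overlapped, and the log2 fold change was −0.36 (SE 0.098) with a limma adjusted p of 0.00367. The dimmer ID1 probe was detected on 0 of 6 MOTS-c arrays and 2 of 6 control arrays at 72 h, too close to background for a fold. ID4 (chr6:19837370-19842197), the member of the family best known from the nervous system and the mammary gland, did not pass the test. Its levels were 8.48, 8.61 and 9.03 with MOTS-c and 8.38, 8.62 and 8.85 in controls, overlapping throughout, and its log2 difference was 0.07 with a 95% interval of −0.19 to 0.34.

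**Figure D2:**
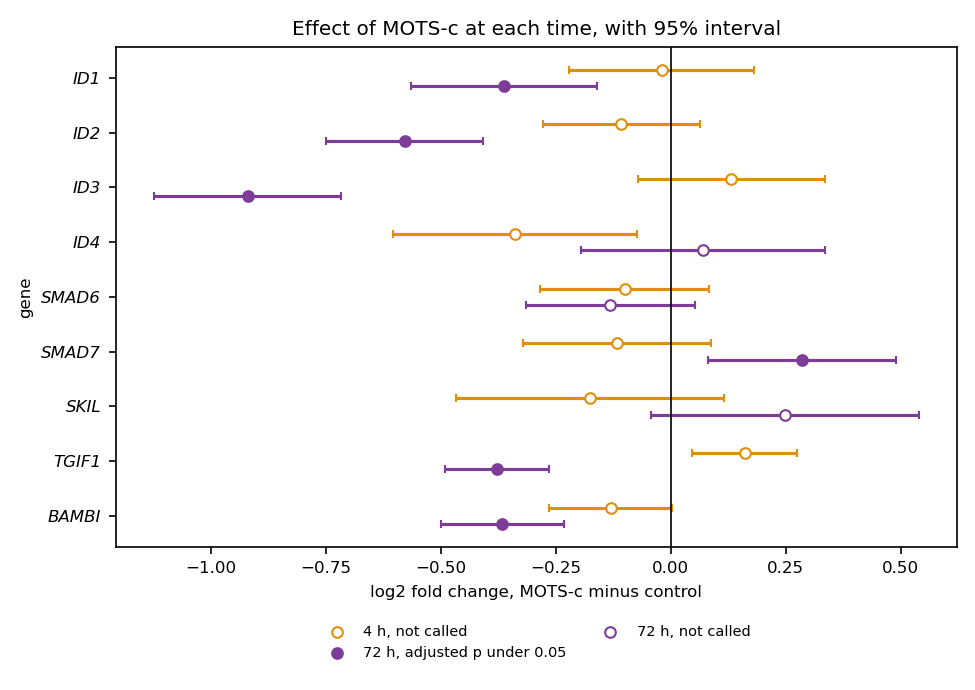
Log2 fold change of MOTS-c over control (horizontal axis) at 4 h and at 72 h for each of the 9 genes, with 95% intervals from limma and n = 6 arrays per group. At 72 h the intervals of ID1, ID2, ID3, TGIF1 and BAMBI lie below 0 and that of SMAD7 above it.

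Of the inhibitory SMADs, SMAD7 was called higher on 1 of its 2 probes and SMAD6 was not called. SMAD7 (chr18:48919853-48950965), which blocks both BMP and TGF-beta receptors, had lowest, median and highest levels of 7.92, 8.1 and 8.41 with MOTS-c and 7.53, 7.9 and 8.09 in controls at 72 h. The groups overlapped, and the log2 fold change was 0.28 (SE 0.099) with a limma adjusted p of 0.021. The second SMAD7 probe gave a log2 difference of 0.01 with a 95% interval of −0.14 to 0.16, so the 2 probes disagree, and their mean gave 0.15 with an adjusted p of 0.0789. The call also ended without control replicate 2 at 72 h (0.22, adjusted p 0.0709), control replicate 6 (0.25, adjusted p 0.056) or MOTS-c replicate 6 (0.23, adjusted p 0.0692). SMAD6 (chr15:66702236-66782849), which acts mainly on BMP signalling, had levels of 8.04, 8.48 and 8.54 with MOTS-c and 8.24, 8.59 and 8.64 in controls. These overlapped, and the log2 difference of −0.13 (95% interval −0.32 to 0.05) was not called.

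Of the nuclear co-repressors, TGIF1 was called lower and SKIL was not called. TGIF1 (chr18:3412009-3459978), a homeodomain protein that recruits histone deacetylases to SMADs, had lowest, median and highest levels of 9.98, 10.04 and 10.15 with MOTS-c and 10.29, 10.43 and 10.57 in controls at 72 h. The groups did not overlap, and the log2 fold change was −0.38 (SE 0.055) with a limma adjusted p of 3.45e-06. Of its 7 probes, 5 were kept, and all 5 were called lower at 72 h, with log2 fold changes between −0.47 and −0.27. These probes target the same gene and are not independent. SKIL (chr3:170357715-170396849) lay near background. Its kept probe had levels of 5.63, 5.91 and 6.13 with MOTS-c and 5.24, 5.65 and 5.89 in controls, where it was detected on 5 of 6 arrays. The groups overlapped, the log2 difference of 0.25 had a 95% interval of −0.04 to 0.54, and its other probe was detected on 0 of 24 arrays.

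BAMBI (chr10:28677521-28682932), which binds TGF-beta and BMP receptors without signalling, had lowest, median and highest levels of 11.37, 11.51 and 11.65 with MOTS-c and 11.74, 11.87 and 11.98 in controls at 72 h. No MOTS-c array reached the control range. The log2 fold change was −0.37 (SE 0.065), or 1.29-fold lower, with a limma adjusted p of 4.84e-05.

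Without control replicate 5 at 72 h, again 5 of the 9 genes were called lower and 1 higher. The log2 fold changes were then −0.98 for ID3, −0.53 for ID2, −0.43 for ID1, −0.38 for TGIF1, −0.34 for BAMBI and 0.34 for SMAD7. When arrays were scaled to a common median in place of quantile normalization, 3 of the 9 were called, and the 3 were ID1 (−0.24, adjusted p 0.0263), ID2 (−0.43, adjusted p 0.0164) and ID3 (−0.79, adjusted p 2.67e-08). The other called genes kept their signs and lost the call. SMAD7 was then larger at 0.37 (adjusted p 0.0519), while TGIF1 at −0.24 (adjusted p 0.0669) and BAMBI at −0.22 (adjusted p 0.128) were smaller by over 1.5 times. Under that scaling 63% of all called genes were higher, against 49.1% under quantile normalization.

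**Figure D3:**
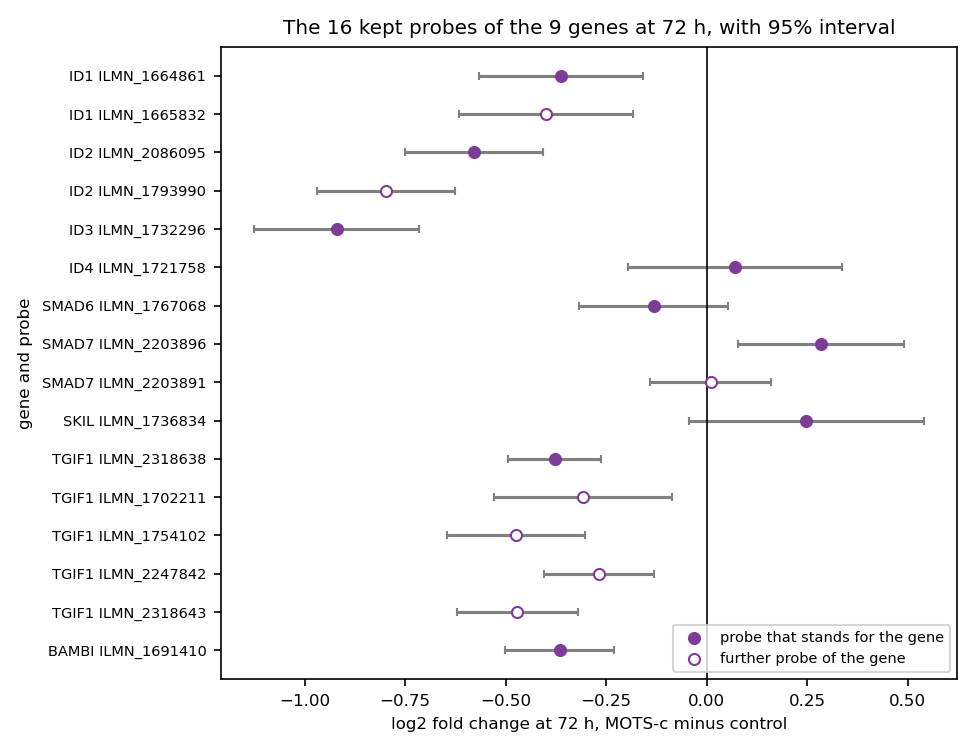
Log2 fold change of MOTS-c over control at 72 h (horizontal axis) for each of the 16 kept probes, with 95% intervals from limma, n = 6 arrays per group and filled points for the probe that stands for the gene. The 5 TGIF1 probes and both ID2 probes lie below 0, the SMAD7 probes disagree at 0.28 and 0.01, and the dimmer ID1 probe was undetected on all 6 MOTS-c arrays, so its plotted size is not a measured fold.

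At 4 h, 0 of the 9 genes were called by limma, beside 0.00753% of all genes (1 gene), and 2 of the 9 (ID4 and TGIF1) had an unadjusted p under 0.05, as had 1567 genes in all. ID4 was at 8.71, 8.79 and 9.19 (lowest, median and highest) with MOTS-c and 8.75, 9.26 and 9.66 in controls, with a log2 difference of −0.34 (SE 0.129, limma adjusted p 0.314). TGIF1 was at 9.74, 9.84 and 9.95 with MOTS-c and 9.6, 9.67 and 9.83 in controls, with a log2 difference of 0.16 (SE 0.055, limma adjusted p 0.269). In both genes the groups overlapped. The differences of the other 7 genes lay between −0.18 (SKIL) and 0.13 (ID3), none past its threshold. ID3, at 10.98, 11.22 and 11.51 with MOTS-c and 10.98, 11.13 and 11.19 in controls, had overlapping groups at this time. In 0 of the 9 were the groups free of overlap, beside 0.542% of all genes.

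The response to the peptide was not the same at 4 h and 72 h for 5 of the 9 genes, beside 34% of all genes. The test was limma's interaction, the 72 h log2 effect minus the 4 h log2 effect. It was called negative in 4 of the 9, beside 17.4% of all genes, and called positive in 1 of the 9, beside 16.7%. ID3 had the largest, −1.05 (SE 0.14, adjusted p 2.35e-06), followed by TGIF1 at −0.54 (SE 0.078, adjusted p 7.69e-06) and ID2 at −0.47 (SE 0.117, adjusted p 0.00274). SMAD7 was the 1 gene called with a positive interaction, 0.40 (SE 0.141, adjusted p 0.0284). BAMBI, at −0.24 (SE 0.092, adjusted p 0.0497), was at the edge of the threshold. The call for BAMBI was lost in 15 of the 24 fits that left out 1 array, with values between −0.27 and −0.21 over the 24 fits and adjusted p of up to 0.0882. The arrays concerned were MOTS-c replicates 1, 3, 5 and 6 and control replicates 2, 3, 5 and 6 at 4 h, and MOTS-c replicates 1, 2, 4 and 5 and control replicates 3, 5 and 6 at 72 h. Without control replicate 5 at 72 h the BAMBI value was −0.21 (adjusted p 0.0711). With all arrays, BAMBI also lost the call under median scaling (−0.03, adjusted p 0.921) and with array weights (−0.22, adjusted p 0.0633). The same held with the replicate block (adjusted p 0.0795), the deposited scores (adjusted p 0.0721) and each probe tested separately (adjusted p 0.0553). ID1 missed the threshold at −0.34 (adjusted p 0.0578). It passed without background correction (−0.31, adjusted p 0.049), with the stricter detection filter (−0.34, adjusted p 0.0444), the mean of probes (−0.32, adjusted p 0.0437), array weights (−0.40, adjusted p 0.0182), the replicate block (adjusted p 0.0275) or the deposited scores (adjusted p 0.0387). It also passed without control replicate 5 at 72 h (−0.41, adjusted p 0.0155), MOTS-c replicate 1, 2 or 3 at 72 h, or MOTS-c replicate 5 or control replicate 6 at 4 h, with values of −0.43 to −0.37 in the other 5 fits. ID4 (0.41, adjusted p 0.0848) passed only without MOTS-c replicate 5 or control replicate 3 or 5 at 4 h (0.47 to 0.50). SKIL (0.42, adjusted p 0.105) passed only without MOTS-c replicate 3 or 6 at 4 h (0.51 in both).

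The TGIF1 interaction was called on all 5 kept probes. Of these, 1 was undetected on all 12 arrays at 4 h and has no size there, and the other 4 gave −0.65 to −0.54. The second ID2 probe gave −0.89 (SE 0.118, limma adjusted p 2.3e-06), larger than the brighter probe. The second SMAD7 probe gave 0.04, with a 95% interval of −0.18 to 0.25. SMAD7 lost the call on the brighter probe without control replicate 2 (0.34, adjusted p 0.0588) or replicate 6 at 72 h (0.37, adjusted p 0.0531), or without MOTS-c replicate 6 at 72 h (0.34, adjusted p 0.0593). Under median scaling 1 of the 9, ID3, was called.

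Levels also moved between 4 h and 72 h of culture, in both arms. This comparison shares its 72 h arrays with the effect at 72 h, so the values stand side by side and are not independent of it. With MOTS-c, 7 of the 9 genes were called, 1 higher and 6 lower, beside 38.1% of all genes (19.9% higher and 18.2% lower). In controls, 8 of the 9 were called, 2 higher and 6 lower, beside 62.6% of all genes (31.9% higher and 30.7% lower). The 6 include ID2 on its brighter probe, while its other probe was called higher. With MOTS-c the 4 h and 72 h arrays did not overlap in 5 of the 9 (1 higher and 4 lower), beside 18.8% of all genes (9.74% higher and 9.03% lower). In controls they did not overlap in 4 of the 9 (2 higher and 2 lower), beside 35.6% of all genes (18.9% higher and 16.7% lower).

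**Figure D4:**
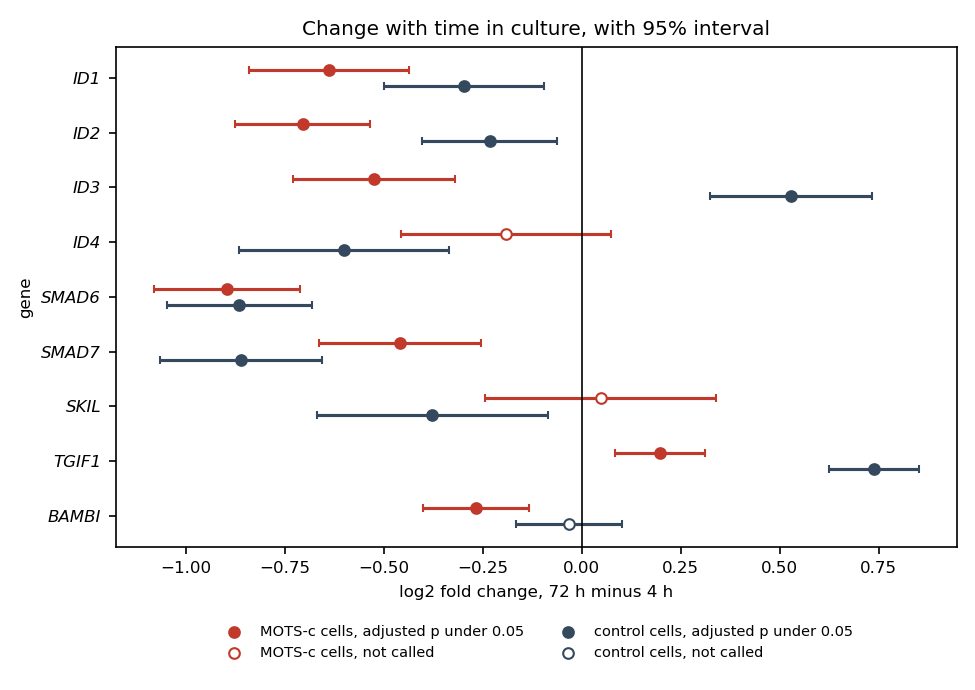
Log2 difference between 72 h and 4 h (horizontal axis) for each of the 9 genes, with MOTS-c above control, 95% intervals from limma and n = 6 arrays per group. ID3 lies on opposite sides of 0 in the 2 arms, and SMAD6 has nearly the same value in both.

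ID3 moved in opposite directions in the 2 arms. It fell by 0.52 between 4 h and 72 h with MOTS-c (SE 0.099, limma adjusted p 0.000152), and rose by 0.53 in controls (SE 0.099, adjusted p 4.78e-05). The interaction given above is the test of that difference. ID1 changed by −0.64 with MOTS-c and −0.30 in controls, both called lower. SMAD6 changed by −0.90 with MOTS-c and −0.86 in controls, so it was lower at 72 h whether or not the peptide was present.

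ID2, on its brighter probe, changed by −0.70 with MOTS-c and −0.23 in controls. The second ID2 probe gave −0.51 with MOTS-c and 0.39 in controls, so the probes disagree in sign for controls and no direction is given there. SMAD7 changed by −0.46 with MOTS-c and −0.86 in controls on its brighter probe, while the second probe gave 0.03 with MOTS-c and −0.01 in controls. TGIF1 rose by 0.20 with MOTS-c (adjusted p 0.00596 by limma) and by 0.74 in controls (adjusted p 1.05e-11). With MOTS-c 3 of the 5 kept probes were called higher, 1 of them undetected on all 6 MOTS-c arrays at 4 h (at least 1.02-fold), and the other 2 were at 0.05 and 0.17 and not called. In controls all 5 kept TGIF1 probes rose, with log2 changes of 0.67 to 0.96 on the 4 that were detected at 4 h and at least 1.22-fold on the other.

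BAMBI changed by −0.27 with MOTS-c, called lower, and by −0.03 in controls, not called. ID4 changed by −0.19 with MOTS-c, not called, and fell by 0.60 in controls. SKIL changed by 0.05 with MOTS-c, not called, and by −0.38 in controls. That SKIL call was lost without control replicate 1 or 4 at 4 h (−0.33 and −0.32, adjusted p 0.0587 and 0.062) and without control replicate 1 or 2 at 72 h (−0.34 and −0.30, adjusted p 0.054 and 0.0721). Without control replicate 5 at 72 h, 8 of the 9 genes were again called over time in controls.

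The rest of the pathway was described with lists that hold none of the 9 genes. Of 91 genes on them, 69 were measured. At 72 h 15 of the 69 were called higher and 14 lower, or 42%, beside 45.1% of all genes, and at 4 h 0 of the 69 were called by limma (8 at an unadjusted p under 0.05). Their median log2 fold change at 72 h was −0.03. Without control replicate 5, 16 were called higher and 14 lower. With median scaling 19 were called higher and 7 lower, and the median was 0.04.

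**Figure D5:**
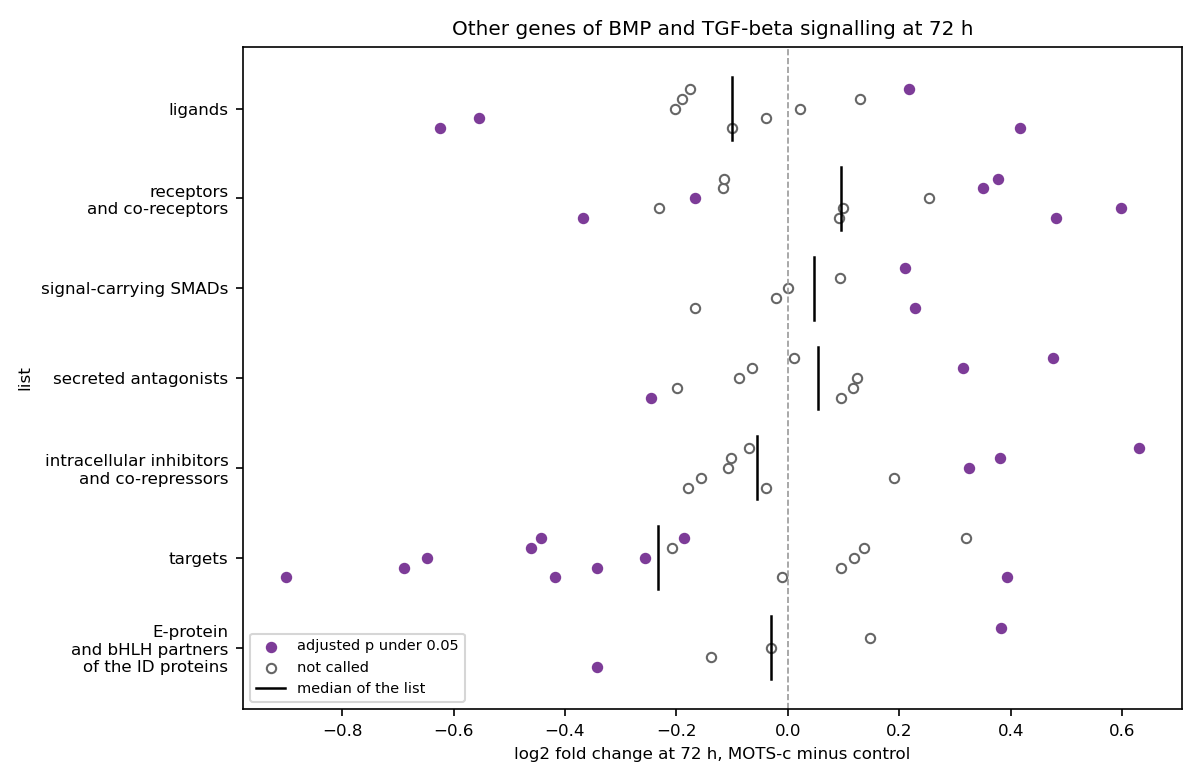
Log2 fold change of MOTS-c over control at 72 h (horizontal axis) for the 69 measured genes of the pathway by list (HEY1 is on 2 lists), with a bar for each list's median and filled points for genes called by limma. The target list has the lowest median of the 7 lists, −0.23.

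Among the ligands, 2 of 11 measured rose and 2 fell. BMP2, a ligand that induces ID genes in many cells, averaged 8.96 ± 0.086 with MOTS-c and 9.58 ± 0.15 in controls at 72 h (SD, n = 6 each), a log2 fold change of −0.62 (limma adjusted p 1.01e-07). GDF15, a stress-induced ligand, fell by 0.55, BMP8B rose by 0.42 and BMP6 by 0.22. Among the receptors 4 of 12 rose and 2 fell. TGFBR3, the co-receptor betaglycan, rose by 0.60, TGFBR2, the type II TGF-beta receptor, rose by 0.48, and ACVR2A, a type II activin receptor, fell by 0.37. The 2 kept probes of ACVR2A were at −0.37 and −0.14. TGFBR1, the type I TGF-beta receptor, was called higher but was detected on 3 of 6 MOTS-c arrays and 0 of 6 control arrays, so no fold is given.

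Of the 6 signal-carrying SMADs, 2 rose and 0 fell. SMAD3, of the TGF-beta branch, rose by 0.21 and SMAD4, the common partner, by 0.23. SMAD9 and SMAD5, of the BMP branch, had log2 differences of −0.17 and 0.09 and were not called. Each had 2 kept probes, at −0.42 and −0.17 for SMAD9 and 0.09 and 0.27 for SMAD5. Of 10 secreted antagonists 2 rose (TWSG1 by 0.48 and FSTL1 by 0.32) and 1 fell (SOSTDC1 by 0.25). FST, which binds activin, was at 0.12 and not called, and its 2 kept probes were at 0.12 and 0.31. SOSTDC1 lost the call under median scaling (−0.24, adjusted p 0.0903) and without control replicate 5 (−0.20, adjusted p 0.0754). Of 10 intracellular inhibitors 3 rose and 0 fell, with PMEPA1 at 0.33, STUB1, a ubiquitin ligase, at 0.38 and PPM1A, a phosphatase of SMADs, at 0.63. The 5 probes of PPM1A spread from −0.13 to 0.63, and the 3 of PMEPA1 from 0.15 to 0.33. SKI, a relative of SKIL, was at 0.19 and not called.

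Of 16 measured targets of the pathway, 9 were called lower at 72 h and 1 higher, beside 22.9% lower among all genes. With median scaling the count was 4 lower (KLF10, CCN2, GADD45B and JUNB) and 2 higher (LTBP2 and CDKN1A), so the count rests in part on the scaling. Without control replicate 5 it was 8 lower and 1 higher. KLF10, a TGF-beta early response factor, fell by 0.90, to a mean of 7.41 ± 0.16 with MOTS-c against 8.31 ± 0.16 in controls (SD, n = 6 each). CCN2, a matricellular protein, fell by 0.69, GADD45B, a stress and growth arrest gene, by 0.65, and HEY1, a bHLH repressor, by 0.34. HEY1 lost the call under median scaling (−0.19, adjusted p 0.182). Of the 5 measured E-protein and bHLH partners, TCF12 rose by 0.38 and HEY1, which is on this list too, fell. TCF3 and TCF4, E proteins that ID proteins bind, had log2 differences of 0.15 and −0.14 and were not called. TCF3 was called higher under median scaling (0.28, adjusted p 0.0186), and TCF4 was called lower without control replicate 5 (−0.21, adjusted p 0.0148).

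The genes most like each member over the 24 arrays, by Pearson r of log2 levels, are a description. The 24 points share 4 group means. They were SPOUT1 (0.944) and RER1 (0.929) for ID3, FOXA2 (0.938) and CYP4V2 (0.923) for ID2, HOXC9 (0.904) and SLC38A10 (0.903) for ID1, and C2orf76 (0.906) and RNASEH2B (0.894) for ID4. For SMAD6 they were GLMP (0.975) and TSPAN10 (0.973), and for SMAD7 TMEM47 (0.953) and UBQLN2 (0.935). For TGIF1 they were BPHL (0.967) and SNHG15 (0.962), and for SKIL TTC14 (0.687) and LINC00459 (0.662). For BAMBI they were TMEFF2 (0.918), itself a transmembrane protein with follistatin-like domains, and ID2 (0.866), the 1 case in which a member was among the genes most like another.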

How the data were processed

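RNA of HEK293 cells was measured on 24 bead arrays. The deposited intensity table, labelled non-normalized, gives an intensity per probe and array and was taken as neither background-corrected nor scaled. The authors' table also gives a detection p-value for each, and a further deposited table a score, which equals the Z score of log10 intensity within an array to within 5e-10. Arrays were read with GenomeStudio 2011.1, per the submitters' processing notes. With limma 3.58.1 in R 4.3.3, neqc estimated background from the detection p-values, quantile-normalized and gave log2 values (offset 16). A probe was kept if at least 6 arrays detected it at p under 0.05 (23931 probes), and 17873 had 1 gene symbol, updated through RefSeq gene IDs. The brightest probe stood for a gene. All 24 arrays entered a single linear model of 4 group means (20 residual degrees of freedom), with two-sided tests and Benjamini-Hochberg adjustment over 13283 genes, called at adjusted p under 0.05. A probe undetected on all arrays of a group has only a bound. The number of arrays limits the precision, since arrays give no counts. The members, the pathway and marker lists, and the rules for naming genes (the 4 smallest p per pathway list at 72 h, and the 2 genes most like each member) were chosen with earlier results of these data known. Alternatives covered background, normalization, scores, filters, probe choice, array weights, groups fitted, a replicate block and leaving out each array. For the pathway and marker lists, median scaling and leaving out control replicate 5 at 72 h were added after seeing the data. The model was tested on simulated data. Figures used Python 3.11.15 and matplotlib 3.10.9.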

Additional observations from a re-analysis of the deposited data

Results flagged for a closer look

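SMAD6 on control replicate 5 at 72 h, at a log2 level of 8.24, lay far below the other 5 arrays of its group, the nearest of which was at 8.51. The gap was 0.655 of the range of the group. It was the 1 such value among 36 combinations of a gene and a group, and chance alone picks out about 1 group in 20.

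For 5 genes, limma's interaction test found unequal effects of the peptide at 4 h and 72 h. The 72 h effect minus the 4 h effect, on the log2 scale, was −1.05 for ID3, −0.54 for TGIF1, −0.47 for ID2, −0.24 for BAMBI and 0.40 for SMAD7. The BAMBI value was near the threshold, and the second SMAD7 probe gave 0.04.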

How the results depend on the processing

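At 4 h the count of genes called, 1 under the reported settings, was 2 without background correction, 0 with median scaling, 2 with the deposited scores, 4 with detection p under 0.01 on all 24 arrays, 3 with each probe tested separately, 0 with array weights, 0 with only the groups compared and 0 with a replicate block. It was 0 to 15 when 1 array was left out, with 15 without MOTS-c replicate 1 and 9 without control replicate 5, and 0 of the 9 genes was called in any of these fits. With median scaling 3 of the 9 genes were called at 72 h, against 6, and 1 in the interaction, against 5. The ID2 change over time in controls was −0.23 on the brighter probe and 0.077 (adjusted p 0.284) with the mean of its probes, which disagree in sign. Leaving out 1 array gave 5 to 6 of the 9 genes and 5477 to 6382 genes in all at 72 h. It gave 3 to 6 of the 9 and 4078 to 5097 genes in the interaction, 7 to 8 and 7967 to 8430 over time in controls, and 7 and 4509 to 4964 over time with MOTS-c. The labels do not say whether replicate numbers pair the arrays, and no pairing was seen in the values. Deviations of same-numbered MOTS-c and control arrays had correlations of −0.23 to 0.093 (4 h) and −0.15 to 0.16 (72 h). With the replicate block 5799 genes and 6 of the 9 were called at 72 h, and 4292 genes and 5 of the 9 in the interaction. Those 5 held ID1 in place of BAMBI. A block across times, chosen after seeing the data, gave 8273 genes and 8 of the 9 in controls, and 4994 genes and 7 of the 9 with MOTS-c. Under median scaling, the share of called genes that were higher was 62.1% in the interaction, against 49%, and 69.2% over time with MOTS-c, against 52.2%. There SMAD7 (−0.39, adjusted p 0.0545) and BAMBI (−0.16, adjusted p 0.296) lost their calls over time with MOTS-c. Except where a probe, an array or a scaling is named, the cause of these changes was not tested. Signal near background limits SKIL and the dimmer ID1 probe.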

Other observations

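Several ligands and targets that fell with MOTS-c at 72 h rose over time in control cultures, and these values share the 72 h arrays with the comparison at 72 h. Of the 9 targets called lower, 7 were called higher over time in controls, beside 31.9% of all genes. The 9 were picked as low against the same 72 h control arrays, which favours a rise in controls. The count is therefore no separate result about the targets. CDKN2B was not called over time in controls (−0.15) and fell by 0.52 with MOTS-c. DLX5 fell in both arms, by 0.68 with MOTS-c and 0.43 in controls. BMP2 changed between 4 h and 72 h by 0.01 with MOTS-c, not called, and rose by 0.69 in controls (limma adjusted p 6.09e-09). GADD45B changed by 0.09 with MOTS-c, not called, and rose by 0.81 in controls. CCN2 rose by 0.30 with MOTS-c and by 0.96 in controls, and GDF15 by 1.38 with MOTS-c and 2.07 in controls. KLF10 rose by 0.43 with MOTS-c, less than in controls. Their interactions were −0.67 for BMP2, −0.72 for GADD45B, −1.07 for KLF10, −0.66 for CCN2 and −0.69 for GDF15, each with a limma adjusted p under the threshold. TGFBR3 changed by −0.07 with MOTS-c, not called, and fell by 0.82 in controls, with an interaction of 0.75.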
